A study of Mus musculus with 16 samples.

Results

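The interleukin-1 (IL-1) axis was followed in mouse muscle macrophages through 10 genes, taken by symbol from the 24421 gene symbols of a count table. They were the ligands Il1a and Il1b, the antagonist Il1rn, the receptors Il1r1, Il1r2 and Il1rap, the related cytokine Il18 with its inhibitor Il18bp, and Nlrp3 and Casp1 of the inflammasome. RNA of F4/80+ cells sorted from muscle was sequenced in 16 libraries, 4 for each of 4 groups: KO CTX, WT CTX, KO normal and WT normal. KO marks macrophages deficient in Glud1, a mitochondrial enzyme of glutamate breakdown, and CTX marks injected muscle taken when damage was greatest, whereas normal muscle was sorted at baseline. The labels spell the agent no further than CTX. Sources used here did not give the allele, its driver, mouse ages or whether each library came from a mouse of its own.

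IL-1α and IL-1β act through the same receptor, IL1R1, which signals only together with the accessory protein IL1RAP. The pathway is held back at the receptor by the antagonist IL-1RN, which occupies IL1R1 without signalling, and by IL1R2, a decoy that binds ligand but cannot signal. IL-1β and IL-18 are made as inactive precursors and are cut by caspase-1 in inflammasomes such as that of NLRP3, so transcript levels do not measure active cytokine. Macrophages and monocytes are a main source of these cytokines in damaged muscle.

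Library totals ran from 17051892 to 23097420 counts. CTX libraries held 14434 to 14886 detected genes and normal libraries 16118 to 16846, with TMM scaling factors of 0.759 to 0.866 in CTX and 1.13 to 1.34 in normal libraries. Levels are given as CPM, the count of a gene relative to the scaled library total. Scaling by library totals alone moved the median log2 injury difference of all genes by -0.609 in KO and -0.617 in WT, and the share of called genes that were higher to 18.6% in KO, against 45.3% with TMM factors, and to 18.9% in WT, against 45.8% with TMM factors. Marker genes of macrophages summed to 22907 to 27243 CPM in KO CTX, 30333 to 37059 in WT CTX, 12958 to 18613 in KO normal and 14742 to 22485 in WT normal libraries, and all 11 were above 1 CPM on average in each group. Of the 11, 6 rose and 4 fell in CTX muscle in KO, and 7 rose and 4 fell in WT (edgeR adjusted p under 0.05). Of all genes, 33.3% rose in each genotype, while 40.2% fell in KO and 39.4% in WT. Csf1r averaged 1653 CPM in KO CTX and 1741 in WT CTX, against 2862 in KO normal and 3151 in WT normal libraries. All 8 CTX libraries came from male mice by Xist and Y-linked genes, and 3 normal libraries came from females (KO normal 5, WT normal 5 and WT normal 6).

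Glud1 stood at 327, 334, 351 and 342 CPM in KO CTX, against 391, 387, 348 and 366 CPM in WT CTX libraries. In normal muscle it stood at 240.0, 238, 272 and 209.8 CPM in KO, against 258, 292, 253 and 219 CPM in WT libraries. The genotypes overlapped in both conditions (exact two-sided permutation p = 0.0571 in CTX and 0.486 in normal muscle, where the smallest possible p is 0.0286). Counts over the whole gene therefore did not separate the genotypes, and the deleted part is not given, so they do not check the labels. KO and WT below are the libraries so labelled, and this holds for every genotype difference.

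Within normal muscle, 3 libraries stood apart on the first principal component (KO normal 1, KO normal 2 and WT normal 2), at -37.2, -45.3 and -32.7 against -0.652 to 39.2 for the other 5. Neutrophil markers summed to 2202, 6882 and 4710 CPM in these 3 and to 353 to 1798 CPM in the other 5. In CTX muscle the same markers summed to 432 to 1353 CPM in KO and 318 to 656 CPM in WT libraries. Of the 12 listed markers, 11 were in the table, and Ngp was the most abundant on average in normal muscle only. S100a9 led in KO CTX libraries, with a mean of 165 CPM against 147.5 for Ngp. Csf3r led in WT CTX libraries, with a mean of 126 CPM against 17.6 for Ngp. Csf3r and Mmp8 averaged higher in CTX than in normal muscle in both genotypes, and the other markers averaged lower. Neutrophils can also carry IL-1 axis transcripts, and their part in the levels below was not tested. Results that rest on these 3 normal libraries are given with and without them. All 3 were male by Xist and Y-linked genes, so the other 5 held all 3 female libraries.

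Promoter sequences are shown for Il1b, Il1rn and Nlrp3, the main ligand, its antagonist and the sensor, which rose together in CTX-injected muscle (values below). The windows run from 250 bases before to 50 bases after a RefSeq transcript start on GRCm38.p6, 5′ to 3′ in the direction of the gene, and RefSeq promoters were found by symbol for all 10 genes. The Il1b window is chr2:129371090-129371389 on the minus strand, that of Il1rn chr2:24336610-24336909 on the plus strand and that of Nlrp3 chr11:59541319-59541618 on the plus strand. Capitals mark matches to 5 searched motifs: AP-1 (TGANTCA), C/EBP (TTGCNNAA), CRE (TGACGTCA) and NF-kB on both strands, and the TATA box (TATAAA) on the plus strand.
Il1b: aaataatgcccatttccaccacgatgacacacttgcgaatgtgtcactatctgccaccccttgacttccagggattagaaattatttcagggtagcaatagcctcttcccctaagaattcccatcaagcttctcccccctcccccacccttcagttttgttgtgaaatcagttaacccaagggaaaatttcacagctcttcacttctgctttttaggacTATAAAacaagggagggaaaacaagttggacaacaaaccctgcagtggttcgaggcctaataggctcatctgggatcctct
Il1rn: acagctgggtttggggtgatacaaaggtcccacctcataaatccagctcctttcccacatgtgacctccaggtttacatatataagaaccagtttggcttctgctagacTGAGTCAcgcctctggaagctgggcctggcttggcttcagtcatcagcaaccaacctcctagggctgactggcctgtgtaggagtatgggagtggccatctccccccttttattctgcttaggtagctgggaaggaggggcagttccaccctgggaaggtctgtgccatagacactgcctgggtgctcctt
Nlrp3: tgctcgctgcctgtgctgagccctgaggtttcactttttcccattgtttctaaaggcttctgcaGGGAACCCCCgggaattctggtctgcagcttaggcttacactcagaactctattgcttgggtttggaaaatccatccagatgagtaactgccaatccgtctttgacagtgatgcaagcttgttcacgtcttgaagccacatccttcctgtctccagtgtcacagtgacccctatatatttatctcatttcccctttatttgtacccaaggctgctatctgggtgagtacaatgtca
The Il1b window held TATAAA 31 bases before the start, a motif present in 8.32% of all 32851 promoter windows. The Il1rn window held the AP-1 match TGAGTCA 141 bases before the start (7.81% of windows hold an AP-1 match), and Nlrp3 an NF-kB match 186 bases before it (4.51% of windows). Of the other starts listed, those at windows chr2:24345041-24345340 and chr2:24345121-24345420 for Il1rn and chr11:59542436-59542735 for Nlrp3 held no match. Il1a, the neighbour of Il1b on chromosome 2, held both TATAAA and an AP-1 match, 32 and 12 bases before its start. A match is a description of these letters and does not show that a factor was bound.

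Of the 10 genes, 8 rose in CTX against normal muscle in KO and 8 in WT, while none fell in KO and 2 fell in WT (edgeR's quasi-likelihood test, adjusted p under 0.05). Among all 13649 genes tested, 33.3% rose and 40.2% fell in KO, and 33.3% rose and 39.4% fell in WT. The median log2 difference of the 10 genes was 1.82 in KO, against -0.16 over all genes, and 1.98 in WT, against -0.15 over all genes. The 8 genes that rose had CTX and normal libraries that did not overlap in either genotype, as did 31.3% of all genes in that direction in KO and 30.6% in WT. With library totals alone Il18 was not called and Casp1 fell in both genotypes, while the directions of the other 7 that rose held. In sorted bulk RNA, fewer cells of a type and less RNA per cell cannot be told apart.

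**Figure D1:**
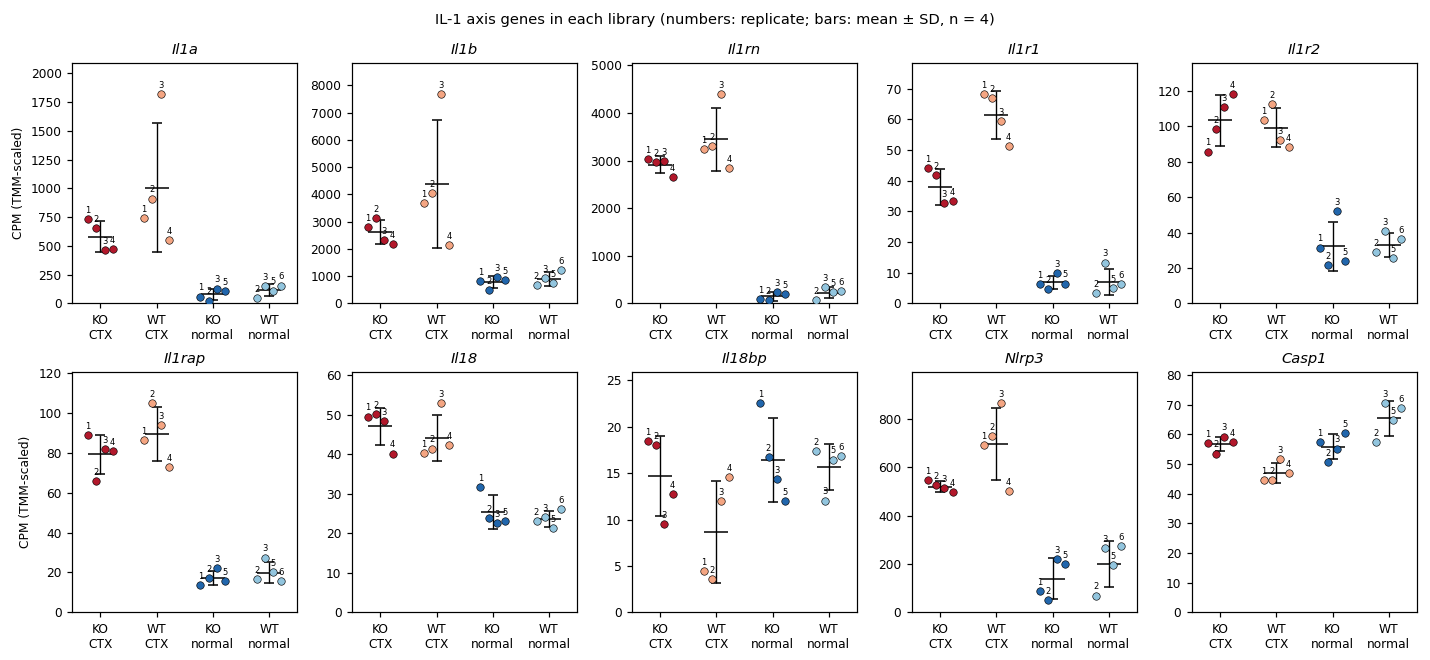
TMM-scaled CPM of the 10 IL-1 axis genes (linear axes from 0) in each library of the 4 groups. Points are libraries with their replicate number, and bars are the mean and SD (n = 4). CTX points lie above normal points for all genes other than Il18bp and Casp1.

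Il1b, the main secreted IL-1 cytokine of macrophages (chr2:129364570-129371139, minus strand, GRCm38), was the most abundant ligand. It stood at 2798, 3129.8, 2318 and 2163 CPM in KO CTX, against 819.8, 481, 965 and 862 CPM in KO normal libraries 1, 2, 3 and 5. In WT it stood at 3678, 4051, 7672 and 2131 CPM in CTX, against 653, 925, 745 and 1218 CPM in normal libraries 2, 3, 5 and 6. Every CTX library was above every normal library, and WT CTX library 3 stood above the other 7 CTX libraries. Il1b rose 3.33-fold in KO (log2 1.74, SE 0.32, edgeR adjusted p = 0.000155) and 4.95-fold in WT (log2 2.31, SE 0.33, edgeR adjusted p = 1.15e-05).

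Il1a (chr2:129299610-129309972, minus strand), whose product acts as an alarm signal released from damaged cells, was far lower than Il1b in normal muscle. It stood at 734, 654, 462 and 468.5 CPM in KO CTX, against 57.7, 23.9, 128 and 105 CPM in KO normal libraries. WT libraries held 742, 911, 1818 and 551 CPM in CTX, against 41.5, 147.5, 110.2 and 154 CPM in normal libraries. The 3 normal libraries that stood apart held the 3 lowest values, and WT CTX library 3 the highest. Il1a rose 7.39-fold in KO (log2 2.88, SE 0.50, edgeR adjusted p = 8.93e-05) and 8.87-fold in WT (log2 3.15, SE 0.51, edgeR adjusted p = 4.26e-05). Without the 3 normal libraries the log2 difference was 2.33 in KO and 2.88 in WT. Of the 1974 exon bases of Il1a, 222 overlap the counted gene Gm14023 on the other strand, and the library kit keeps no strand.

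Il1rn, the receptor antagonist (chr2:24336853-24351494, plus strand), had the largest rise of the 10 genes in both genotypes. It stood at 3034, 2974, 2983 and 2645 CPM in KO CTX, against 80.3, 61.1, 239.6 and 194 CPM in KO normal libraries. The WT levels were 3247, 3314, 4392 and 2850.3 CPM in CTX, against 62.8, 339, 242 and 254 CPM in normal libraries. The CTX libraries were close together, while the normal libraries ranged widely, with the 3 that stood apart lowest. Il1rn rose 20.2-fold in KO (log2 4.34, SE 0.49, edgeR adjusted p = 9.18e-07) and 15.4-fold in WT (log2 3.94, SE 0.48, edgeR adjusted p = 2.15e-06). Without the 3 normal libraries the log2 difference was 3.76 in KO and 3.63 in WT.

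Il1r1, the signalling receptor (chr1:40225080-40317257, plus strand), was scarce in normal muscle, with 85 to 309 reads per library. It stood at 44.2, 41.7, 32.7 and 33.4 CPM in KO CTX, against 6.28, 4.76, 9.90 and 6.42 CPM in KO normal libraries. In WT it stood at 68.1, 67.0, 59.4 and 51.3 CPM in CTX, against 3.32, 13.3, 4.92 and 6.20 CPM in normal libraries. It rose 5.57-fold in KO (log2 2.48, SE 0.32, edgeR adjusted p = 4.28e-06) and 8.89-fold in WT (log2 3.15, SE 0.33, edgeR adjusted p = 4.05e-07). Fibroblasts also carry this receptor. Their 6 markers, all above 1 CPM on average in each group, summed to 54.3 to 68.8 CPM in KO CTX, 76.0 to 99.9 in WT CTX, 185 to 888 in KO normal and 225 to 548 in WT normal libraries.

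Il1r2, the decoy receptor and a neighbour of Il1r1 (chr1:40074079-40125231, plus strand), rose less. It stood at 85.8, 98.5, 111 and 118 CPM in KO CTX, against 31.5, 21.5, 52.2 and 23.9 CPM in KO normal libraries. WT libraries held 104, 113, 92.2 and 88.4 CPM in CTX, against 29.2, 40.9, 25.7 and 36.2 CPM in normal libraries. The gain was 3.21-fold in KO (log2 1.68, SE 0.23, edgeR adjusted p = 7.34e-06) and 3.01-fold in WT (log2 1.59, SE 0.23, edgeR adjusted p = 1.29e-05).

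Il1rap, the accessory chain that IL1R1 needs to signal (chr16:26581704-26730117, plus strand), stood at 88.9, 65.7, 82.2 and 80.7 CPM in KO CTX, against 13.6, 17.2, 22.1 and 15.6 CPM in KO normal libraries. The WT levels were 86.4, 105, 94.1 and 72.8 CPM in CTX, against 16.6, 27.5, 20.1 and 15.6 CPM in normal libraries. All 8 CTX libraries lay above all 8 normal libraries. Il1rap rose 4.64-fold in KO (log2 2.21, SE 0.19, edgeR adjusted p = 4.56e-08) and 4.48-fold in WT (log2 2.16, SE 0.19, edgeR adjusted p = 5.31e-08). Of its 11360 exon bases, 552 overlap Gm20319 on the other strand.

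Il18, whose product is cut by caspase-1 as IL-1β is (chr9:50554827-50581840, plus strand), had the smallest rise of the 8. It stood at 49.6, 50.2, 48.5 and 40.2 CPM in KO CTX, against 31.7, 23.9, 22.7 and 23.2 CPM in KO normal libraries. In WT it stood at 40.4, 41.5, 52.9 and 42.3 CPM in CTX, against 23.1, 24.2, 21.4 and 26.2 CPM in normal libraries. It rose 1.86-fold in KO (log2 0.89, SE 0.12, edgeR adjusted p = 8.88e-06) and 1.87-fold in WT (log2 0.90, SE 0.12, edgeR adjusted p = 8.54e-06). With library totals alone the differences were not called (log2 0.28 in each genotype, edgeR adjusted p = 0.0660 in KO and 0.0635 in WT), a log2 value that still lay above the shifted median of all genes of -0.77 in both.

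Il18bp, a secreted protein that captures IL-18 (chr7:102014885-102018690, minus strand), went the other way in WT and rested on 64 to 538 reads per library. It stood at 18.4, 18.0, 9.51 and 12.8 CPM in KO CTX, against 22.5, 16.8, 14.3 and 12.03 CPM in KO normal libraries. WT libraries held 4.48, 3.57, 12.03 and 14.6 CPM in CTX, against 17.3, 12.04, 16.5 and 16.8 CPM in normal libraries. WT CTX libraries 1 and 2 were the lowest of all 16, and CTX and normal libraries overlapped in both genotypes. In KO the log2 difference was -0.16 (SE 0.35, edgeR adjusted p = 0.688), and in WT Il18bp fell by 0.86 on the log2 scale (SE 0.36, edgeR adjusted p = 0.0430). The WT call ended in 10 of 18 alternatives, among them the fits without WT CTX 1 (log2 -0.64, edgeR adjusted p = 0.130), WT CTX 2 (log2 -0.59, 0.124), WT normal 2 (-0.81, 0.0809), WT normal 5 (-0.83, 0.0772) or WT normal 6 (-0.84, 0.0752), and without the 3 normal libraries that stood apart (-0.80, 0.0811). Numa1, on the other strand, shares 80 of its 3026 exon bases.

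Nlrp3, the sensor of the best known inflammasome (chr11:59541568-59566956, plus strand), stood at 548, 525, 513 and 496 CPM in KO CTX, against 88.4, 49.7, 221 and 199.8 CPM in KO normal libraries. The WT levels were 692, 728, 864 and 503 CPM in CTX, against 69.6, 265, 195 and 274 CPM in normal libraries. As for Il1rn, the CTX libraries lay above all normal ones and the 3 normal libraries that stood apart were lowest. Nlrp3 rose 3.73-fold in KO (log2 1.90, SE 0.42, edgeR adjusted p = 0.00075) and 3.47-fold in WT (log2 1.80, SE 0.42, edgeR adjusted p = 0.00118). Without those 3 libraries the log2 difference was 1.33 in KO and 1.51 in WT.

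Casp1, the protease that cuts the IL-1β and IL-18 precursors (chr9:5298517-5307265, plus strand), did not follow its sensor. It stood at 56.9, 53.5, 59.2 and 57.5 CPM in KO CTX, against 57.4, 50.6, 55.2 and 60.3 CPM in KO normal libraries. The WT levels were 44.5, 44.5, 51.5 and 47.1 CPM in CTX, against 57.4, 70.4, 64.8 and 68.7 CPM in normal libraries. The KO libraries overlapped, and each WT CTX library was below each WT normal library, as for 34.9% of all genes in that direction. Casp1 fell by 0.48 on the log2 scale in WT (SE 0.09, edgeR adjusted p = 0.000118), whereas in KO the log2 difference was 0.02 (SE 0.09, edgeR adjusted p = 0.811). With library totals alone it fell in both genotypes, with log2 -0.58 in KO (edgeR adjusted p = 1.19e-05) and -1.09 in WT (edgeR adjusted p = 1.40e-08), less than the shifted median of all genes of -0.77 in KO and more than the same median in WT.

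**Figure D2:**
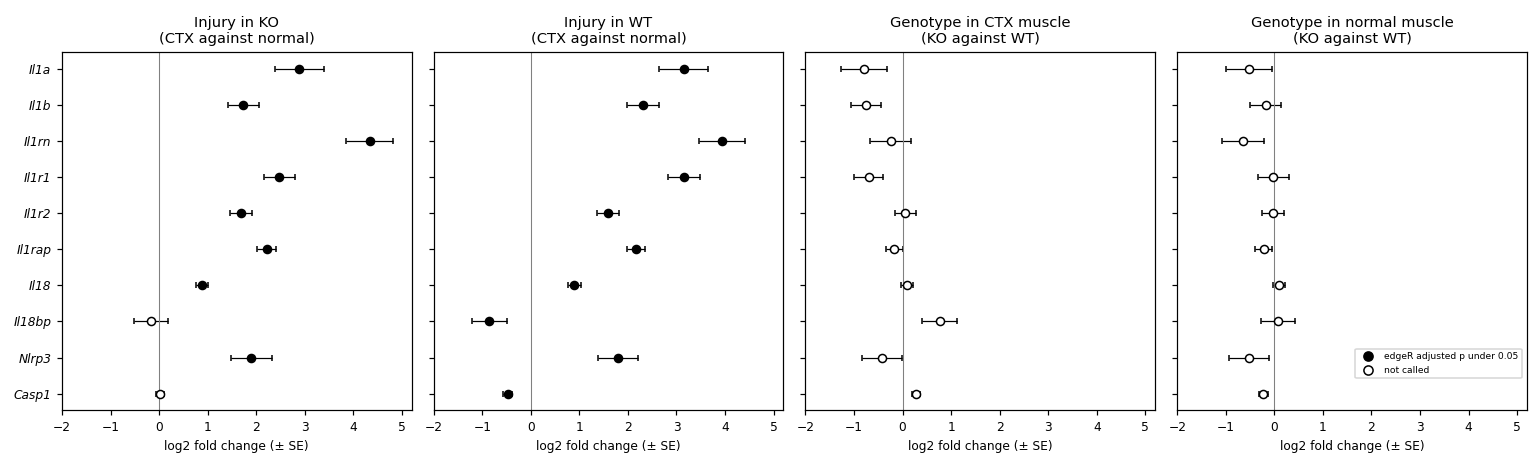
edgeR log2 fold changes (± SE) of the 10 genes for injury in KO and in WT (CTX against normal muscle) and for genotype in CTX and in normal muscle (KO against WT). Filled points passed an adjusted p of 0.05 and open points did not. Il1rn lies furthest right for injury in both genotypes, at 4.34 in KO and 3.94 in WT, and no point is filled in the genotype panels.

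Genotype made no call among the 10 genes with edgeR. In CTX muscle 0 of 10 passed, against 0.00733% of all genes, with 3 of 10 at an unadjusted p under 0.05 (910 of all genes). DESeq2 called none of the 10, and limma voom called 2. In normal muscle 0 of 10 and 0% of all genes passed with edgeR, DESeq2 and limma voom, with 1 of 10 at an unadjusted p under 0.05 (390 of all genes). A p that misses the threshold does not show that the genotypes were alike.

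In CTX muscle the 4 KO libraries lay below the 4 WT libraries for Il1r1 and above them for Casp1, so 2 of 10 genes had separate groups, against 5.70% of all genes. For Il1r1 the log2 difference was -0.69 (SE 0.30, edgeR adjusted p = 0.691), and limma voom called it at -0.75 (adjusted p = 0.0251). For Casp1 it was 0.28 (SE 0.09, edgeR adjusted p = 0.490), and limma voom called it at 0.31 (adjusted p = 0.0364). The fibroblast marker sums of the KO CTX libraries also lay below those of the WT CTX libraries, and their part in these values was not tested. The macrophage marker sums lay lower in KO CTX as well, but Lyz2, the most abundant marker, averaged 8021 CPM in KO CTX and 14893 CPM in WT CTX libraries. Over the 11 macrophage markers the median log2 difference was 0.014, edgeR called 0, and 1 was higher and 1 lower in KO CTX without overlap.

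The ligands were lower on average in KO CTX than in WT CTX libraries, with overlap. Il1b averaged 2602 ± 444 CPM in KO CTX and 4383 ± 2345 CPM in WT CTX libraries (SD, n = 4 each), which is -0.75 on the log2 scale (SE 0.31, edgeR adjusted p = 0.682). Without WT CTX library 3 that difference was -0.34. Il1a differed by -0.79 (SE 0.47, edgeR adjusted p = 0.888) and by -0.34 without that library. The size of both differences therefore rested on that library.

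Il1rn averaged 2909 ± 178 CPM in KO CTX and 3451 ± 660 CPM in WT CTX libraries (log2 -0.25, SE 0.42, edgeR adjusted p = 0.988). Nlrp3 averaged 521 ± 21.9 CPM in KO CTX and 697 ± 149 CPM in WT CTX libraries (log2 -0.42, SE 0.41, edgeR adjusted p = 0.960). Il18bp averaged 14.7 ± 4.30 CPM in KO CTX and 8.67 ± 5.49 CPM in WT CTX libraries (log2 0.76, SE 0.36, edgeR adjusted p = 0.749). For Il1r2, Il1rap and Il18 the log2 differences were 0.06, -0.17 and 0.09, each smaller in size than its SE. In normal muscle the 10 log2 differences ran from -0.64 for Il1rn (SE 0.43, edgeR adjusted p = 0.991) to 0.10 for Il18, and KO and WT libraries overlapped for all 10, where 1.08% of all genes had separate groups.

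The difference between the injury effects (KO minus WT) was tested as an interaction, which called 0 of 10 genes and 0% of all genes with edgeR, with 1 of 10 at an unadjusted p under 0.05 (646 of all genes). That gene was Casp1, at 0.50 (SE 0.12, edgeR adjusted p = 0.283), ranked 35 of the 13649 genes by p. DESeq2 called it at 0.50 (adjusted p = 0.0392) as 1 of 48 genes, and limma voom called 11 genes and none of the 10. For the other 9 genes the interaction ran from -0.68 for Il1r1 (SE 0.44) to 0.69 for Il18bp (SE 0.51), with edgeR adjusted p at 1 for each. The WT fall of Casp1 after injury and its absence in KO are therefore not shown to differ by the edgeR test.

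Ratios of reads within a library do not depend on how libraries are scaled. They set antagonist against ligand, ligand against ligand, decoy against signalling receptor, and binding protein against cytokine. Il1rn had 95.0 to 129 reads per 100 Il1b reads in KO CTX libraries, against 9.79 to 24.8 in KO normal libraries. In WT it had 57.2 to 134 reads in CTX, against 9.61 to 36.7 in normal libraries. The mean log2 ratio was higher in CTX than in normal muscle by 2.80 in KO and by 1.96 in WT, and CTX and normal libraries did not overlap. Il1a gained on Il1b as well, by a mean log2 of 1.35 in KO and 0.97 in WT, again without overlap. Without the 3 normal libraries that stood apart, the Il1rn to Il1b difference was 2.26 in KO and 1.56 in WT, and that of Il1a to Il1b was 0.80 in KO and 0.67 in WT. CTX and normal libraries still did not overlap for either ratio.

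The decoy and the binding protein were lower against their partners after injury. The log2 ratio of Il1r2 to Il1r1 was lower in CTX than in normal muscle, with a difference of means of -0.75 in KO and -1.72 in WT, without overlap. Il1r2 had 194 to 354 reads per 100 Il1r1 reads in KO CTX, against 152 to 172 in WT CTX libraries, so every KO CTX library lay above every WT CTX library (mean log2 1.45 ± 0.42 in KO CTX and 0.69 ± 0.09 in WT CTX, SD, n = 4 each). The log2 ratio of Il18bp to Il18 was lower in CTX muscle as well, with a difference of means of -1.07 in KO and -1.98 in WT, without overlap. Without the 3 normal libraries the Il1r2 to Il1r1 difference was -0.70 in KO and -1.49 in WT, and that of Il18bp to Il18 was -0.92 in KO and -1.92 in WT. Between genotypes the other 3 ratios overlapped in CTX muscle, and all 4 overlapped in normal muscle. These ratios are descriptions without a test. How often other gene pairs separate was not computed, so their lack of overlap has no share to stand beside. Among single genes in WT, 30.6% lay higher and 34.9% lower in CTX muscle without overlap. The separation of Il1r2 to Il1r1 between genotypes in CTX muscle is not a further result. It reuses the separate Il1r1 levels, while Il1r2 itself differed by log2 0.06.

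**Figure D3:**
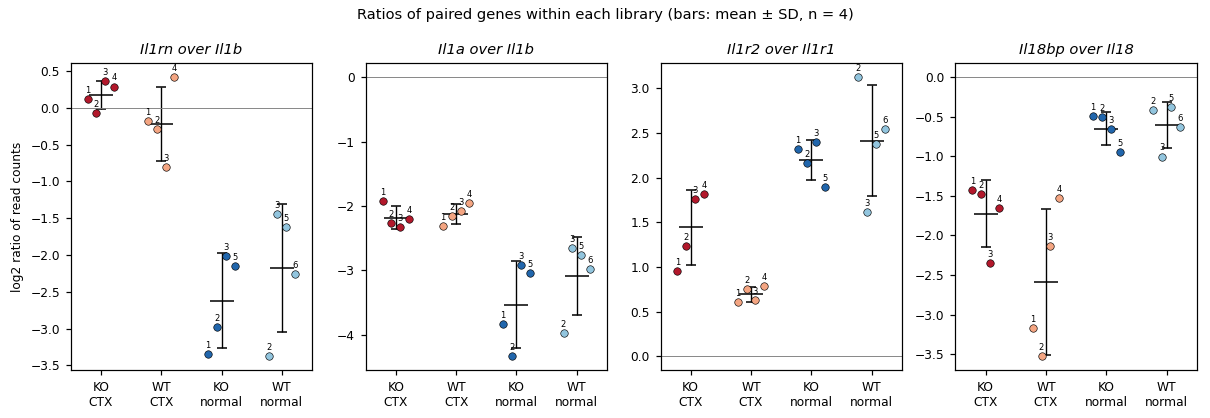
Log2 ratios of read counts (with 0.5 added to each count) for Il1rn over Il1b, Il1a over Il1b, Il1r2 over Il1r1 and Il18bp over Il18 in each library of the 4 groups. Points are libraries with their replicate number, and bars are the mean and SD (n = 4). The Il1rn over Il1b points lie between -0.80 and 0.42 in the CTX groups and at -1.45 or lower in both normal groups.

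Per kilobase of exon, Il1b was the most abundant of the 10 genes in every group, at 1365 ± 233 CPM per kilobase in KO CTX, 2298 ± 1230 in WT CTX, 409.9 ± 109.9 in KO normal and 464 ± 130.4 in WT normal libraries (SD, n = 4 each). Il1rn was next in both CTX groups, at 526 ± 32.1 CPM per kilobase in KO and 623 ± 119 in WT, but the fifth in both normal groups, at 26.0 ± 15.7 in KO and 40.5 ± 21.0 in WT. In KO CTX libraries the ranges of Il1b, Il1rn, Il1a and Nlrp3 did not touch, in that order, and in WT CTX libraries those of Il1rn and Il1a overlapped. This order depends on exon lengths merged over all annotated transcripts, 5535 bases for Il1rn and 1907 for Il1b. By CPM alone, Il1rn averaged 2909 and Il1b 2602 in KO CTX, and Il1rn 3451 and Il1b 4383 in WT CTX libraries. In normal muscle the ranges of Il1a, Nlrp3, Casp1, Il1rn and Il18 overlapped from one to the next in both genotypes. Il1r1 was the lowest in both normal groups, with a range that overlapped that of Il1rap, and Il18bp was the lowest in both CTX groups.

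Likeness of pattern was measured as the root mean square difference of centred log2 CPM over the 16 libraries, among 4828 genes with a mean log2 CPM of at least 5. Nearest to Il1b were Traf1 (0.29), Bcl2a1d (0.32) and Rnf149 (0.32). Nearest to Il1rn were Clec4e (0.32), Flrt3 (0.33) and Slc39a14 (0.36), and nearest to Nlrp3 were Rab11fip1 (0.22), Pvr (0.27) and Ccl2 (0.27), which encodes a monocyte attractant. Clec4e, a receptor for products of dying cells, averaged 4269 CPM in KO CTX, 5100.4 in WT CTX, 182 in KO normal and 252 in WT normal libraries. These values describe shared levels over libraries that also share the injury contrast.

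Of the other IL-1 family, 13 of 17 listed genes were in the table and 7 passed the filter on low counts. After injury 1 of the 7 rose and 4 fell in KO, where 33.3% of all genes rose and 40.2% fell. In WT 2 of the 7 rose and 4 fell, where 33.3% of all genes rose and 39.4% fell. Il1f9, the gene of the family cytokine IL-36γ, rose by 3.82 on the log2 scale in KO (SE 0.41, edgeR adjusted p = 5.58e-07) and by 4.05 in WT (SE 0.42, edgeR adjusted p = 4.03e-07). It averaged 24.6 CPM in KO CTX, 21.4 in WT CTX, 1.71 in KO normal and 1.28 in WT normal libraries. The receptors named by the rule fell. Il1rl1, which binds IL-33, fell (log2 -2.48 in KO and -3.04 in WT). Il18r1, which binds IL-18, fell (log2 -3.85 in KO and -3.97 in WT), and Sigirr, a receptor of the family that dampens signalling, fell likewise (-2.39 in KO and -2.35 in WT). Il18r1 was at most 0.226 CPM in KO CTX and 0.397 CPM in WT CTX libraries. Without WT CTX library 1 its WT difference was -5.57, against -3.97 with all libraries. Il18rap and Il1rl2, tested receptors that the rule did not name, averaged higher in CTX muscle, with overlap in both genotypes. In WT 1 of these 2 made the rise called besides Il1f9, and in KO neither was called as a rise. Il18rap averaged 12.3 CPM in KO CTX, 12.5 in WT CTX, 7.87 in KO normal and 7.08 in WT normal libraries. Il1rl2 averaged 7.45 CPM in KO CTX, 7.13 in WT CTX, 5.23 in KO normal and 5.51 in WT normal libraries. Il33, also not named by the rule, averaged lower in CTX muscle without overlap in either genotype. Its means were 1.46 CPM in KO CTX, 2.14 in WT CTX, 10.7 in KO normal and 6.85 in WT normal libraries.

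Downstream of the receptor, all 22 signalling genes were tested, and after injury 13 rose and 5 fell in KO, and 13 rose and 4 fell in WT. Their median log2 difference was 0.44 in KO, against -0.16 over all genes, and 0.60 in WT, against -0.15 over all genes. Of all genes, 33.3% rose in each genotype, while 40.2% fell in KO and 39.4% in WT. Irak3, which restrains IL-1 receptor signalling in macrophages, rose by 2.17 in KO and 2.23 in WT (log2, SE 0.25 each). It averaged 172 CPM in KO CTX, 191 in WT CTX, 38.2 in KO normal and 40.8 in WT normal libraries. Ube2n, Tab3 and Map3k7, of the ubiquitin and kinase steps that follow TRAF6, rose by 0.98, 1.01 and 0.71 in KO and by 0.96, 0.92 and 0.72 in WT. Map3k7 was not called with library totals alone, at 0.10 in KO and 0.11 in WT (edgeR adjusted p = 0.271 in KO and 0.237 in WT).

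Of 24 other listed inflammasome sensors and adaptors 23 were tested, and after injury 5 rose and 11 fell in KO, and 6 rose and 11 fell in WT. The list median was log2 -0.53 in KO, against -0.16 over all genes, and -0.49 in WT, against -0.15 over all genes. Falls also outnumbered rises over all genes, with 40.2% against 33.3% in KO and 39.4% against 33.3% in WT. Aim2, a sensor of cytosolic DNA, fell (log2 -1.06 in KO and -1.39 in WT), as did Naip5, a sensor of bacterial flagellin (log2 -1.35 in KO and -1.23 in WT). Txnip, which binds NLRP3 under oxidative stress, averaged 139 CPM in KO CTX, 90.2 in WT CTX, 563 in KO normal and 539.6 in WT normal libraries, and fell (log2 -2.02 in KO and -2.58 in WT). Nlrp12, a family member described as a brake on inflammation, averaged 1.02 CPM in KO CTX, 0.222 in WT CTX, 3.18 in KO normal and 3.34 in WT normal libraries, and fell (log2 -1.64 in KO and -3.89 in WT). Other listed genes, not named by the rule, went the other way. Pycard averaged 112 CPM in KO CTX, 111 in WT CTX, 49.2 in KO normal and 43.9 in WT normal libraries. Mefv averaged 462 CPM in KO CTX, 473 in WT CTX, 78.6 in KO normal and 86.2 in WT normal libraries. For both, CTX and normal libraries did not overlap in either genotype.

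For pyroptosis and cytokine release, 22 of 24 listed genes were in the table and tested. After injury 10 rose and 7 fell in KO, and 7 rose and 7 fell in WT, beside 33.3% of all genes that rose in each genotype and 40.2% in KO and 39.4% in WT that fell. The list median was log2 0.10 in KO, against -0.16 over all genes, and -0.00102 in WT, against -0.15 over all genes. Ninj1, which ruptures the membrane of dying cells, rose by 1.74 in KO and 1.49 in WT (log2), to 1258 CPM in KO CTX and 1301 CPM in WT CTX, against 378 CPM in KO normal and 463 CPM in WT normal libraries. The lysosomal protease gene Ctsb rose by 1.75 in KO and 1.59 in WT, and the calpain gene Capn2, of a family linked to IL-1α processing, by 1.23 in KO and 1.07 in WT. Gbp3, of an interferon-induced family, fell (log2 -1.89 in KO and -2.60 in WT).

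**Figure D4:**
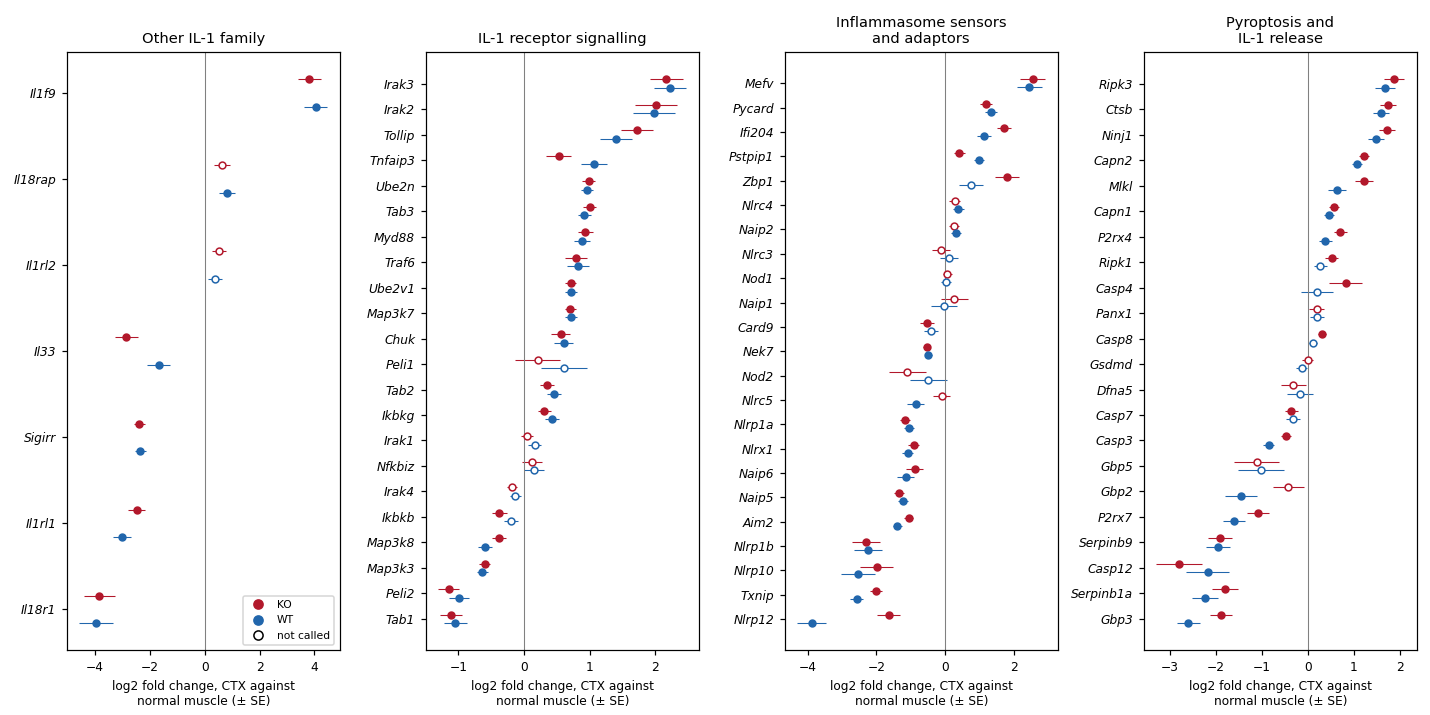
edgeR log2 fold changes (± SE) for CTX against normal muscle of the tested genes in 4 pathway lists, with KO in red above WT in blue. Filled points passed an adjusted p of 0.05. Irak3 and Ctsb lie right of 0 and Txnip, Sigirr and Gbp3 left of 0 in both genotypes.

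No gene of these 4 lists was called by edgeR between genotypes in either condition or in the interaction. Among the genes named from them, Txnip and Nlrp12 in CTX muscle were higher in every KO library than in every WT library, at log2 0.62 (SE 0.18, edgeR adjusted p = 0.421) and 2.18 (SE 0.44, edgeR adjusted p = 0.181), and Map3k7 was lower in every KO library, at log2 -0.14 (SE 0.09, edgeR adjusted p = 0.888). Of all genes, 5.70% had KO CTX and WT CTX libraries that did not overlap in either direction. These genes were named by their p for injury in WT, which used the same WT CTX libraries, so that share is no like comparison. Over the whole lists, 4 of 23 inflammasome genes were higher and 1 lower in KO CTX without overlap. Of the signalling genes 2 of 22 were lower, of the pyroptosis genes 1 of 22 was higher, and of the other family genes 0 of 7 were separate. Nlrp12 ran from 0.779 to 1.34 CPM in KO CTX and from 0.167 to 0.332 CPM in WT CTX libraries. Immediate early and heat shock genes, a sign of handling, summed to 7234 to 8411 CPM in KO CTX, 7660 to 9358 in WT CTX, 27515 to 33705 in KO normal and 25983 to 32940 in WT normal libraries. They fell in CTX muscle for 15 of 16 genes in each genotype, and their part in the injury differences was not tested.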

How the data were processed

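The deposited values were whole-number read counts per gene symbol, not normalized, in 1 table of 24421 genes and 16 libraries. The build was mm10 and the tools were HISAT2 2.1.0, featureCounts (Subread 1.6.2), cutadapt 1.18 and FastQC 0.11.7, as the submitters' processing notes list without roles or order. RNA was amplified with SMART-Seq V4, per the labels' protocols, a kit without strand information. Sources used here did not give the annotation or the handling of multiply mapped reads. Of the symbols, 5362 had no read.

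Genes were kept with filterByExpr by group (13649, all 10 members among them) and scaled with TMM factors. The test was the quasi-likelihood test of edgeR 4.0.16 in R 4.3.3, with 1 coefficient per group over all 16 libraries, Benjamini-Hochberg adjustment over all genes and a threshold of 0.05. Whether each library is a different mouse is not stated, so p-values measure only spread between libraries, which may be technical. The test was checked on simulated data in which 200 genes were raised in 1 group. For injury in WT 9929 genes were called, so that check does not cover scaling where most genes differ. Fold changes are CTX over normal or KO over WT. Ratios used counts plus 0.5. Coordinates and exon lengths came from GENCODE M21 on GRCm38, the assembly mm10 names. Intervals were not derived from counts, since reads without molecular identifiers give counting error only.

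The members and lists were chosen with earlier results of these data known. The named genes were the 10 members, Glud1, the 4 genes of smallest p for injury in WT from each pathway list, any gene of those lists called between genotypes, and the 3 genes nearest in pattern to Il1b, Il1rn and Nlrp3. Alternatives were RLE factors, library totals, DESeq2 1.42.0, limma 3.58.1 voom with quality weights, no filter, a filter of 5 CPM in 4 libraries, male libraries only, the replicate number as a block, only the groups compared, and leaving out each library. Fits and ratios without the 3 normal libraries that stood apart, and with the block in normal muscle only, were added after the data were seen. Same-numbered normal libraries deviated together (r = 0.644, 0.567 and 0.244), and so were treated as paired in the added block. Libraries of unlike number were not compared in this way, so these values do not show that the numbers mark pairs.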

Additional observations from a re-analysis of the deposited data

Results flagged for a closer look

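Of 60 groups of 4 libraries examined (levels and ratios), 5 held a library far from the other 3 by Dixon's criterion, the gap to the nearest library over the range. Chance flags about 1 in 20 groups. Il1rn was lowest in KO CTX library 4, at 2645 CPM, with a gap of 0.847 of the range. Il18 was also lowest in KO CTX library 4, at 40.2 CPM (0.833), highest in WT CTX library 3, at 52.9 CPM (0.849), and highest in KO normal library 1, at 31.7 CPM (0.870). Il18bp was lowest in WT normal library 3, at 12.04 CPM (0.834). The calls of Il1rn and Il18 after injury were kept without each of these libraries in turn. The Il18bp call in WT was kept without WT normal library 3.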

How the results depend on the processing

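Of the injury calls on the 10 genes, those of Il1a, Il1b, Il1rn, Il1r1, Il1r2, Il1rap and Nlrp3 in both genotypes and that of Casp1 in WT held under all 18 alternatives each, 8 of them leaving out 1 library. Il18 lost its call only with library totals alone, in both genotypes. The Il18bp call in WT ended in 10 of 18: besides those in the report, without the low-count filter (log2 -0.83, edgeR adjusted p = 0.0512), in male libraries (-0.77, 0.158), with the replicate block (-1.11, 0.0676) and with only the 2 groups compared (-0.88, 0.0643). The cause was not tested.

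The number of genes called between genotypes in CTX muscle was 1, against 43 with DESeq2, 112 with limma voom, 2 in male libraries, 2 with the replicate block, 3 with only the 2 groups compared and 1 to 2 with 1 library left out. Limma voom called 2 of the 10 members there. The interaction called 0 genes, against 48 with DESeq2 (1 member), 11 with limma voom, 1 in male libraries and 0 to 2 with 1 library left out (2 without KO CTX 2 or KO normal 5).

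Differences that were not called in the main comparison changed sign under some settings, where only Casp1 with library totals was called. For injury in KO, Casp1 was at -0.00541 with RLE factors, -0.58 with library totals, -0.00469 with DESeq2, -0.15 with the 5 CPM filter, -0.00943 with only 2 groups and -0.00214 without the 3 normal libraries, where Il18bp was at 0.17. For genotype in normal muscle, Il1r1 was at 0.075 with library totals, 0.058 with voom and 0.017 without the 3 libraries, Il1r2 at 0.038 with library totals, 0.031 in males and 0.17 without the 3 libraries, and Il18 at -0.061 and Il18bp at -0.20 without them. For the interaction, Il1a was at 0.51 with voom and Il18 at 0.00825 without the filter. Without the 3 libraries Il1r2 was at -0.087, Il18 at 0.17 and Nlrp3 at -0.19.

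Leaving out 1 library gave log2 ranges across 0 for injury in KO of Il18bp (-0.30 to 0.031) and Casp1 (-0.015 to 0.054), and for genotype in CTX muscle of Il1r2 (-0.012 to 0.14). In normal muscle the ranges were -0.29 to 0.01995 for Il1b, -0.25 to 0.52 for Il1r1, -0.35 to 0.14 for Il1r2, -0.022 to 0.17 for Il18 and -0.11 to 0.22 for Il18bp. For the interaction they were -0.57 to 0.19 for Il1a, -0.05983 to 0.44 for Il1r2, -0.13 to 0.21 for Il1rap, -0.058 to 0.13 for Il18 and -0.17 to 0.44 for Nlrp3.

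The replicate block over all libraries moved the injury difference of Il1a to 3.55 in KO and 3.84 in WT, of Il1rn to 4.67 and of Nlrp3 to 2.55 in WT, with these calls kept. In the genotype comparison of normal muscle it put Il1b at 0.042, and the interaction of Nlrp3 at -0.12. Same-numbered libraries of the injury pairs correlated at -0.0569 to 0.0682 and those of the CTX groups at -0.124 to 0.0046. With so few pairs, these values cannot settle whether the numbers mark pairs there. The block in normal muscle alone, where same-numbered libraries deviated together, called 0 genes between genotypes and put Il1r1 at 0.12, Il18bp at -0.084, and the interaction of Il18 at 0.068 and of Nlrp3 at -0.18. With 5 added to each count, or with 1 library left out, the 4 log2 ratio differences moved by less than the spread between libraries. Without the 3 normal libraries, those for injury in KO moved by more for Il1rn over Il1b, to 2.26 against 2.80 with all libraries, and for Il1a over Il1b, to 0.80 against 1.35. The other ratio differences moved by less than the spread there. Depth limits Il18bp, with 64 reads in its lowest library, and Il1r1, with 85.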

Other observations

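Marker sums of other cell types differed between CTX and normal muscle. Monocyte markers (8 of 8 in the table) summed to 4198 to 4504 CPM in KO CTX, 3875 to 5205 in WT CTX, 985 to 1985 in KO normal and 964 to 1865 in WT normal libraries, with Chil3 the most abundant in CTX muscle. Of the 8, 4 rose and 1 fell after injury in KO, and 3 rose and 1 fell in WT (edgeR adjusted p under 0.05). Ccr2, the most abundant in normal muscle, averaged 472 CPM in KO CTX, 535 in WT CTX, 560 in KO normal and 505 in WT normal libraries. Dendritic cell markers (8 of 8) summed to 55.1 to 89.4 CPM in KO CTX, 77.0 to 99.3 in WT CTX, 520.4 to 818 in KO normal and 425 to 607 in WT normal libraries, and Clec9a and Itgae averaged under 1 CPM in both CTX groups. T and NK cell markers (7 of 8) summed to 223 to 259 CPM in KO CTX, 183 to 265 in WT CTX, 57.4 to 81.5 in KO normal and 45.4 to 69.9 in WT normal libraries. Nearly all of the CTX sum was Il7r, at 234 CPM in KO CTX and 237 CPM in WT CTX, while Cd3e, Cd3g, Ncr1, Klrb1c and Thy1 averaged under 1 CPM there. Of the 7 T and NK markers, 1 rose and 6 fell after injury in each genotype, and of the 8 dendritic markers, 1 rose and 7 fell (edgeR adjusted p under 0.05).

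Eosinophil markers (5 of 5) summed to 46.7 to 111 CPM in KO CTX, 27.8 to 55.1 in WT CTX, 115 to 573 in KO normal and 62.6 to 874 in WT normal libraries. Mast cell and basophil markers (7 of 7) summed to 103 to 141 CPM in KO CTX, 64.9 to 115 in WT CTX, 140.3 to 209.9 in KO normal and 145 to 389 in WT normal libraries. Most of the CTX sum was Hdc, at 111 CPM in KO CTX, 75.8 in WT CTX, 50.3 in KO normal and 66.8 in WT normal libraries, while 6 of the 7 markers fell after injury in each genotype (edgeR adjusted p under 0.05). Endothelial markers (6 of 6) summed to 48.0 to 71.2 CPM in KO CTX, 52.5 to 66.7 in WT CTX, 124 to 205 in KO normal and 86.5 to 139 in WT normal libraries. Muscle fibre markers (6 of 6) summed to 2.44 to 4.36 CPM in KO CTX, 2.25 to 4.65 in WT CTX, 10.02 to 37.9 in KO normal and 13.5 to 37.6 in WT normal libraries, and Myh4 and Myh1 averaged under 1 CPM in all 4 groups. The part of these cells in the IL-1 axis differences was not tested.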
